A study of Homo sapiens with 8 samples.

Results

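The mitochondrially encoded RNAs are the products of the 37 genes of the human mitochondrial genome, a circle of 16569 bases (chrM of hg38). They were taken as every gene whose GENCODE symbol starts with MT-, giving 37 of the 58735 genes in the deposited tables. These are 13 mRNAs, 2 rRNAs and 22 tRNAs, and each was checked to have the same length in the deposited tables as in GENCODE 44. The RNA came from BEAS-2B, an established human bronchial epithelial cell line grown on membrane inserts under medium. The medium above the cells was removed shortly before the exposure, which took place at an air-liquid interface. Cultures were exposed for 2 h to clean air (CA) or to 1 ppm formaldehyde (FA) and then recovered for 6 h. Total RNA was depleted of rRNA with Ribo-Zero Gold. Each depleted RNA pool was then divided into an input fraction (CA_IN, FA_IN) and a fraction immunoprecipitated with an antibody against 8-oxo-7,8-dihydroguanosine (CA_IP, FA_IP). The 8 libraries form 4 groups of 2 biological replicates, numbered 1 and 3. Every library was made from a single line under a single exposure dose, so that other airway cells and doses were not sampled.

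As background, mitochondrial DNA is transcribed from both strands into long precursors, from which the tRNAs are cut out so that the mRNAs and rRNAs between them are released. The heavy strand is the template for both rRNAs, 12 of the mRNAs and 14 tRNAs, and the light strand for MT-ND6 and 8 tRNAs. The mRNAs code for core subunits of the respiratory chain and ATP synthase, and the rRNAs build the mitochondrial ribosome. Guanine is the most easily oxidized base, and its oxidized form, 8-oxoG, is what the antibody binds. RNA in mitochondria lies close to the respiratory chain, a source of reactive oxygen species, and the question the immunoprecipitation puts to these RNAs is whether they were a larger or a smaller part of the captured fraction than of the input.

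The measured set was 15 RNAs, the 13 mRNAs and the 2 rRNAs, each of which had counts in all 8 libraries and passed the filter on low counts. The 22 tRNAs were not measured. They are 59 to 75 bases long, shorter than the mean sequenced fragment (210.2 to 233.9 bases), and all 22 had an effective length (the number of positions at which a fragment of that library could start) of 0 in every library. For 19 of them there was no count in any library, and the other 3 (MT-TA, MT-TS1 and MT-TS2) held 6 counts over the 8 libraries, never more than 1 in a library.

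The guanines that an 8-oxoG antibody could meet are unevenly spread over these RNAs, and the sequences below show it for the genes on which the results turn. They are the hg38 reference read 5′ to 3′ along the strand of the RNA, in DNA letters, with every guanine in capitals. The first 60 bases are given for the 12S and 16S rRNAs (MT-RNR1, chrM:648-707, and MT-RNR2, chrM:1671-1730, both on the plus strand), for MT-ATP6 (chrM:8527-8586, plus strand), for its neighbour MT-CO3 (chrM:9207-9266, plus strand), for MT-ND3 (chrM:10059-10118, plus strand) and for MT-ND6 (chrM:14614-14673, minus strand). MT-ATP8 is given whole (chrM:8366-8572, plus strand), because its 207 bases hold only 13 guanines, the lowest share of the 15, and because its last 46 bases are also the first 46 of MT-ATP6.
MT-RNR1: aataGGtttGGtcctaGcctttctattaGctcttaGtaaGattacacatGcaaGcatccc
MT-RNR2: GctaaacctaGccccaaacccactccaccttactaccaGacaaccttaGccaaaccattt
MT-ATP8: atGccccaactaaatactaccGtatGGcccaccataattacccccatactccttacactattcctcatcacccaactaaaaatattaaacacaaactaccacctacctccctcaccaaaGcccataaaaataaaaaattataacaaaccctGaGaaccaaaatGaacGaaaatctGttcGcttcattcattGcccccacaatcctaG
MT-ATP6: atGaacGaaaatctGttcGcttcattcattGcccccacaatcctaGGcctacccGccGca
MT-CO3: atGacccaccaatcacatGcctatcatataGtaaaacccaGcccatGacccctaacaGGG
MT-ND3: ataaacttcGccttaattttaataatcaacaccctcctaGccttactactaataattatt
MT-ND6: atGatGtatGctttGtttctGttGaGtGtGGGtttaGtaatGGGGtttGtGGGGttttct

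MT-ND6, read from the other strand, carried 21 guanines in its first 60 bases, against 2 for MT-ND3, 8 for MT-CO3, 9 for MT-ATP6, 10 for MT-RNR1 and 4 for MT-RNR2. Over the whole genes the guanine share was 35.6% for MT-ND6 and between 6.28% (MT-ATP8) and 16.2% (MT-CO1) for the 12 heavy-strand mRNAs, with 19.0% for MT-RNR1 and 17.3% for MT-RNR2.

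The input libraries held 26152651 to 45144392 expected counts and the immunoprecipitated libraries 16883500 to 23658012. The epithelial keratins KRT7 (432 to 1250 TPM) and KRT18 (177 to 485 TPM) were present in every library. The epithelial markers EPCAM (10.9 to 23.7 TPM) and CDH1 were present at lower levels than these keratins. Mesenchymal markers were present in every library as well, with VIM at 173 to 476 TPM, close to KRT18, and CDH2 at 3.31 to 7.96 TPM. The markers were therefore not epithelial alone. Of 3 blood markers, PTPRC and CD3E did not exceed 0.02 TPM and HBB was at 0 in all 8 libraries, and the highest of 3 endothelial markers, PECAM1, reached 0.3 TPM. Of the 8 epithelial markers 3 (KRT7, KRT8 and KRT18) were higher in the immunoprecipitated fraction over both treatments and none was lower. In the same edgeR test, 2.15% of all genes were higher and 3.04% lower. The part of these markers in the results below was not tested.

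By counts, though not by TPM, mitochondrially encoded RNAs were a smaller part of the immunoprecipitated libraries than of the input libraries. They took up 13.5% and 14.8% of the expected counts in CA_IN (replicates 1 and 3) and 14.2% and 14.6% in FA_IN. In CA_IP they took up 9.6% and 10.3%, and in FA_IP 10.2% and 11.3%. The 4 input values all lay above the 4 immunoprecipitated values. The mean was 14.3% ± 0.576 (SD, n = 4) in the input and 10.3% ± 0.719 (SD, n = 4) after immunoprecipitation, with an exact two-sided permutation p = 0.0286, the smallest that 4 against 4 libraries can give. With the labels exchanged only within the 4 RNA pools, the exact p was 0.125, again the smallest that this design allows. The direction depended on the scale, because the share of TPM (counts per base of effective length, scaled to the same sum in every library) was 4.47% in the input and 5.08% after immunoprecipitation. Counting error was small beside these differences, with 95% Wilson intervals at most 0.03 percentage points wide. Such intervals account for counting error alone, because no molecular identifiers were used and reads are not separate molecules.

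**Figure D1:**
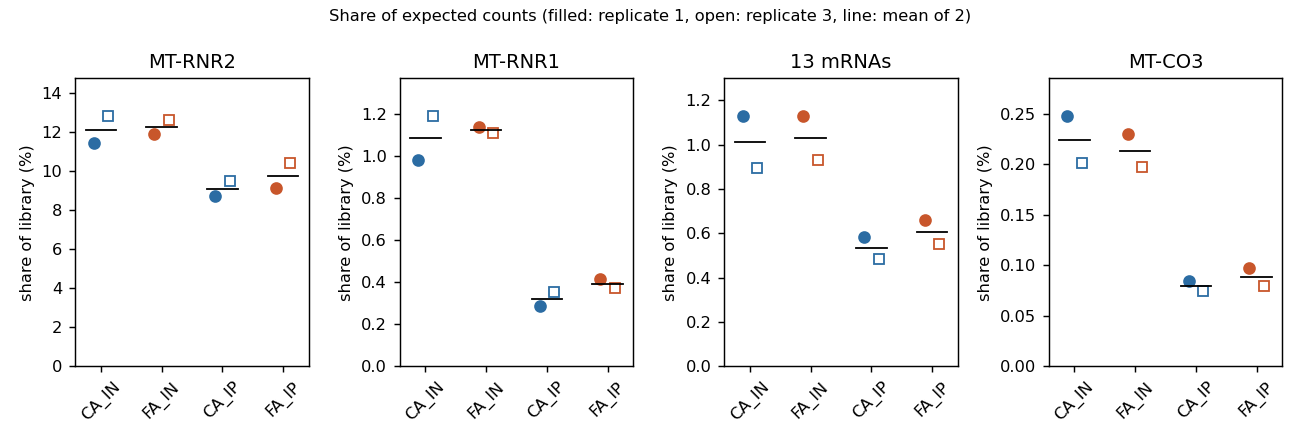
Share of all expected counts (%, each axis from 0) held by MT-RNR2, MT-RNR1, the 13 mRNAs together and MT-CO3 in each library of the 4 groups. Filled circles are replicate 1, open squares replicate 3 and lines the mean of both, and in each panel the 4 immunoprecipitated libraries lie below the 4 input libraries.

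Most of these counts came from the 16S rRNA. MT-RNR2, the RNA of the large mitochondrial ribosomal subunit, held 11.4% and 12.8% of CA_IN, 11.9% and 12.6% of FA_IN, 8.73% and 9.45% of CA_IP, and 9.1% and 10.4% of FA_IP. It made up 84.0% to 86.0% of all mitochondrial counts in the input libraries and 89.4% to 91.9% in the immunoprecipitated ones. MT-RNR1, the RNA of the small subunit, held 0.98% and 1.19% of CA_IN and 1.14% and 1.11% of FA_IN. It was down to 0.288% and 0.353% in CA_IP and 0.416% and 0.37% in FA_IP, and all 4 of these lay below all 4 input libraries. The rRNA levels are those left after a depletion that targets both rRNAs. The depletion preceded the division into fractions, and its part in these values was not tested.

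The 13 mRNAs together held 1.13% and 0.897% of CA_IN and 1.13% and 0.931% of FA_IN. After immunoprecipitation they held 0.583% and 0.485% in CA_IP and 0.66% and 0.551% in FA_IP. MT-CO1 alone accounted for 41.9% to 42.7% of the mRNA counts in the input, and MT-CO1 with MT-CO3 for 62.7% to 64.7%. After immunoprecipitation the pair accounted for 54.0% to 56.2%, below every input library.

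Per length, the RNAs of the input spanned a wide range of levels. MT-RNR2 was highest, at 30600 to 35900 TPM over the 4 input libraries, followed by MT-RNR1 at 5010 to 5930 TPM. Among the mRNAs, MT-CO3 (1300 to 1640 TPM) and MT-CO1 (1050 to 1370 TPM), for cytochrome c oxidase subunits III and I, overlapped each other and lay above all others. MT-ATP8 (538 to 754 TPM), MT-CO2 (464 to 647 TPM) and MT-ND3 (411 to 547 TPM) formed an overlapping run, then MT-ND4L (305 to 371 TPM) with MT-ATP6 (282 to 358 TPM), then MT-CYB (227 to 272 TPM) on its own. MT-ND4 (166 to 217 TPM) overlapped MT-ND1 (137 to 181 TPM), and MT-ND1 overlapped MT-ND2 (108 to 141 TPM). MT-ND5 (81.7 to 102 TPM) and MT-ND6 (38.8 to 55.5 TPM) were the lowest, without overlap. Levels were those of whole cultures, in which fewer cells with an RNA and less RNA per cell cannot be told apart. The levels of the shortest genes rest on few positions, since MT-ATP8 had an effective length of 26.5 bases or less, MT-ND4L of 94.2 or less and MT-ND3 of 139 or less. MT-ATP8 and MT-ATP6 share 46 bases, and MT-ND4L and MT-ND4 share 7, so that reads in the overlap were divided between them by estimation.

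**Figure D2:**
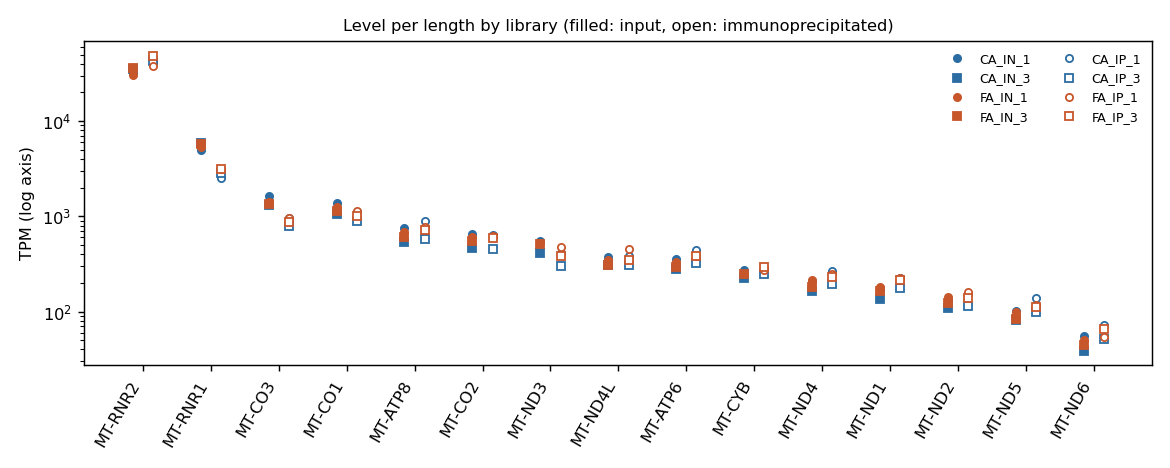
Level per length (TPM, log axis) of the 15 measured RNAs in each of the 8 libraries, ordered by the input mean. Filled symbols are input, open symbols immunoprecipitated libraries, circles replicate 1 and squares replicate 3, and the levels run from MT-RNR2 at 30600 to 35900 TPM in the input to MT-ND6 at 38.8 to 55.5 TPM.

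Gene by gene, all 15 RNAs were lower in the immunoprecipitated libraries than in the matching input in TMM-scaled CPM (counts scaled to a common library total corrected by the trimmed mean of M-values), that is, relative to the bulk of the tested genes, while by TPM 11 of the 15 were higher. In each of the 15 the 4 immunoprecipitated libraries lay below the 4 input libraries, and 5.9% of the 18242 tested genes showed that pattern. The differences within RNA pools, 60 of 60 below 0, follow from that pattern and add no separate support. The 4 that were lower by TPM as well were MT-RNR1, MT-CO1, MT-CO3 and MT-ND3. TPM itself was shifted between the fractions, the median of 17878 tested genes being 0.91 higher on the log2 scale after immunoprecipitation. Beside that shift stood the mean effective length of the sequenced RNA, which was 345.8 to 380.7 bases in the input and 547.2 to 639.8 bases after immunoprecipitation. Relative to the median gene all 15 were lower on the TPM scale too, by between 0.54 (MT-ND1) and 1.83 (MT-RNR1) log2 units.

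In clean air, 7 of the 15 RNAs fell in CA_IP against CA_IN and none rose by edgeR's quasi-likelihood test (Benjamini-Hochberg adjusted p below 0.05, 2 libraries a group). In the same test 1.77% of all genes fell. In formaldehyde, 5 of 15 fell and none rose, against 1.47% of all genes that fell. Over both treatments, 13 of 15 fell and none rose, against 3.04%. All 15 had an unadjusted edgeR p below 0.05 in each of the 3 comparisons, a limit for which no share of all genes is given here. The median log2 fold change was -0.71 in clean air and -0.67 in formaldehyde, with 0.02 and 0.00 for all tested genes. With the RNA pool as a block, which the study's division of each pool supplies, all 15 fell in clean air, in formaldehyde and over both, where 5.85%, 4.6% and 9.64% of all genes fell. Each treatment had only 2 pools, so that the small p-values of this fit, here and below, lean on a spread shared across genes. Exact exchanges within the 4 pools cannot give a p below 0.125.

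**Figure D3:**
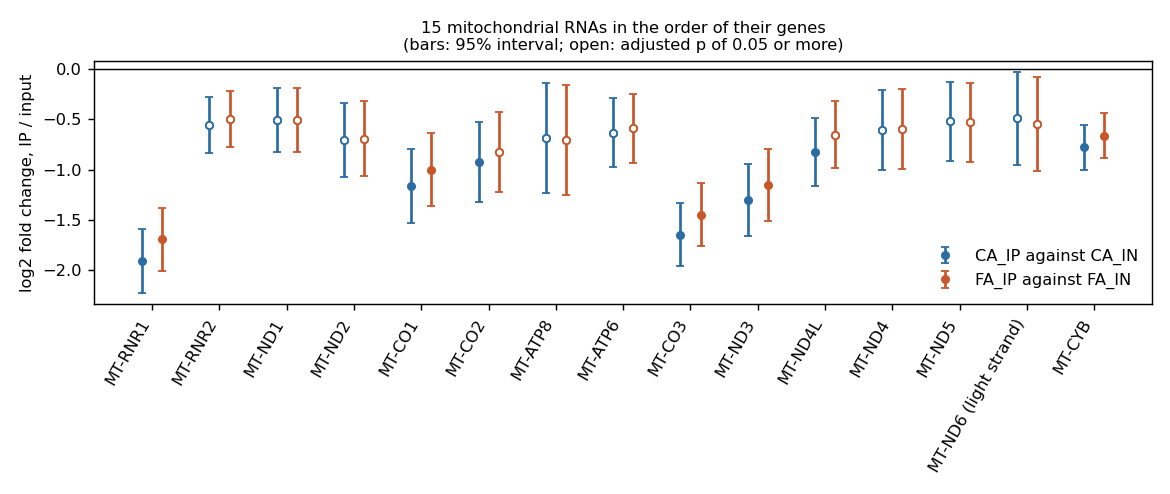
Log2 fold change of the immunoprecipitated fraction against input for the 15 RNAs in the order of their genes, in clean air (blue) and formaldehyde (orange). Bars are 95% intervals of the edgeR fit, filled points have an adjusted p below 0.05, and all 30 points lie below 0 on this scale, though not by TPM, with MT-RNR1 and MT-CO3 lowest.

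The fall was largest for MT-RNR1, the 12S rRNA. Its TMM-scaled CPM were 10200 and 12500 in CA_IN and 12400 and 11800 in FA_IN. After immunoprecipitation they were 2680 and 3370 in clean air and 3890 and 3600 in formaldehyde. The highest immunoprecipitated level was well under the lowest input level. In clean air the log2 fold change was -1.90 ± 0.14 (SE; edgeR adjusted p = 0.000208) and in formaldehyde -1.69 ± 0.14 (adjusted p = 0.000481). MT-RNR2 moved less, at -0.56 ± 0.12 in clean air (adjusted p = 0.0651) and -0.50 ± 0.12 in formaldehyde (adjusted p = 0.138), and passed the edgeR test over both treatments, with -0.53 ± 0.09 (adjusted p = 0.00971). With the RNA pool as a block its adjusted p was 2.8e-08 in clean air and 1.99e-07 in formaldehyde. MT-RNR2 also lost its call over both treatments without CA_IN replicate 3, without FA_IN replicate 1 or without FA_IN replicate 3.

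Over both treatments the next lowest changes were those of MT-CO3 (-1.55), MT-ND3 (-1.23), MT-CO1 (-1.08) and MT-CO2 (-0.87), 3 of them mRNAs of cytochrome c oxidase (complex IV). MT-CO3 (chrM:9207-9990) had 2570 and 2110 TMM-scaled CPM in CA_IN and 2500 and 2090 in FA_IN, but 782 and 713 in CA_IP and 910 and 775 in FA_IP. The highest immunoprecipitated library was below the lowest input library by more than the replicates of any group differed. It fell by 1.65 ± 0.14 (SE) on the log2 scale in clean air (edgeR adjusted p = 0.000374) and by 1.44 ± 0.14 in formaldehyde (adjusted p = 0.000897). MT-CO1 (chrM:5904-7445), which codes for the catalytic subunit, had 4990 and 3950 in CA_IN against 2150 and 1850 in CA_IP, and 5210 and 4150 in FA_IN against 2560 and 2120 in FA_IP. It fell by 1.16 ± 0.16 in clean air (adjusted p = 0.00589) and by 1.00 ± 0.16 in formaldehyde (adjusted p = 0.0153). MT-CO2, for the subunit that takes electrons from cytochrome c, had a log2 fold change of -0.92 ± 0.18 in clean air (adjusted p = 0.0352) and -0.82 ± 0.18 in formaldehyde (adjusted p = 0.0714), the latter with an adjusted p of 1.56e-09 when the pool was a block. The MT-CO2 call in clean air was lost without CA_IN replicate 1, CA_IP replicate 1, CA_IP replicate 3 or FA_IP replicate 1, and in a fit of the 4 clean air libraries alone (edgeR adjusted p = 0.0788), and that of MT-CO1 without CA_IP replicate 3.

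The 7 mRNAs for complex I, NADH dehydrogenase, were spread from -0.51 (MT-ND1) to -1.23 (MT-ND3) on the log2 scale over both treatments. MT-ND3 (chrM:10059-10404) had 201 and 156 TMM-scaled CPM in CA_IN against 79.2 and 65.5 in CA_IP, and 216 and 180 in FA_IN against 95.5 and 82.8 in FA_IP. Its log2 fold change was -1.30 ± 0.16 in clean air (edgeR adjusted p = 0.0026) and -1.15 ± 0.16 in formaldehyde (adjusted p = 0.00622). MT-ND4L was called in clean air, with -0.83 ± 0.15 (adjusted p = 0.0249), and had -0.65 ± 0.15 in formaldehyde (adjusted p = 0.0956). Its clean air call was lost without CA_IN replicate 1, CA_IP replicate 1 or CA_IP replicate 3. The other 5 were not called within a treatment by this test. Over both treatments, MT-ND2 changed by -0.70 ± 0.11, MT-ND4 by -0.60 ± 0.12, MT-ND5 by -0.53 ± 0.12 and MT-ND1 by -0.51 ± 0.10, with edgeR adjusted p of 0.00965, 0.026, 0.0434 and 0.0205. MT-ND1, MT-ND4 and MT-ND5 all lost these calls without CA_IN replicate 1, without CA_IP replicate 3, without FA_IP replicate 1 or without FA_IP replicate 3, and MT-ND4 and MT-ND5 also without FA_IN replicate 1.

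MT-CYB (chrM:14747-15887), the mRNA for cytochrome b of complex III, had the smallest error of the set. It had 691 and 599 TMM-scaled CPM in CA_IN against 386 and 367 in CA_IP, and 719 and 638 in FA_IN against 427 and 429 in FA_IP. The groups were far apart and the replicates of each immunoprecipitated group nearly equal. The log2 fold change was -0.78 ± 0.10 in clean air (edgeR adjusted p = 0.00341) and -0.67 ± 0.10 in formaldehyde (adjusted p = 0.00976). Of the ATP synthase mRNAs, MT-ATP6, for the proton channel subunit, fell over both treatments by 0.61 ± 0.11 (adjusted p = 0.0129). MT-ATP8 had 50.9 and 36.6 TMM-scaled CPM in CA_IN against 30.1 and 24.2 in CA_IP, and 47.6 and 34.2 in FA_IN against 20.4 and 29.5 in FA_IP, with a log2 fold change of -0.70 ± 0.17 over both treatments (adjusted p = 0.0518). With the pool as a block its adjusted p was 8.06e-06. FA_IP replicate 1, its lowest library by CPM, also had the longest fragments implied by the effective lengths, 233.9 bases against 210.2 to 223.0 in the other 7. By TPM, which divides by effective length, MT-ATP8 was at 773 there. The other immunoprecipitated libraries had 898 and 582 (CA_IP) and 714 (FA_IP replicate 3). With effective lengths as offsets MT-ATP8 was called over both treatments. The part of fragment length in its CPM value was not tested on its own.

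MT-RNR1 and MT-CO3 were called within both treatments whichever single library was left out. In clean air MT-ND3 and MT-CYB also kept their calls each time. In formaldehyde, MT-CO1 and MT-CYB lost theirs without FA_IN replicate 1, FA_IP replicate 1 or FA_IP replicate 3, and MT-ND3 without FA_IN replicate 1 or FA_IP replicate 3. The formaldehyde count was then 2, 3 and 2 for FA_IN replicate 1, FA_IP replicate 1 and FA_IP replicate 3, and the clean air count was 4 without CA_IP replicate 3.

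Genes that follow each other on the genome, and so come from the same precursor, moved unequally in 4 of the pairs examined. These pairs were picked after their values were seen and are given without a test. MT-RNR1 counts were 8.57% to 9.59% of MT-RNR2 counts in the 4 input libraries and 3.3% to 4.57% in the 4 immunoprecipitated libraries, a mean difference of -1.27 on the log2 scale. MT-CO3 shares a base with the end of MT-ATP6. MT-CO3 counts were 518% to 565% of MT-ATP6 counts in the input and 266% to 309% after immunoprecipitation, a difference of -0.94. For MT-ND3 against MT-ND4L the range was 202% to 250% in the input and 143% to 169% after immunoprecipitation. MT-CO1 counts were 1430% to 1720% of those of MT-ND2, with tRNA genes between them, in the input and 1160% to 1240% after immunoprecipitation, a difference of -0.38. In each of these pairs all 4 RNA pools moved downwards. The overlapping MT-ATP8 and MT-ATP6 differed in no common direction, with a mean change of -0.09 and 2 of 4 pools above 0.

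**Figure D4:**
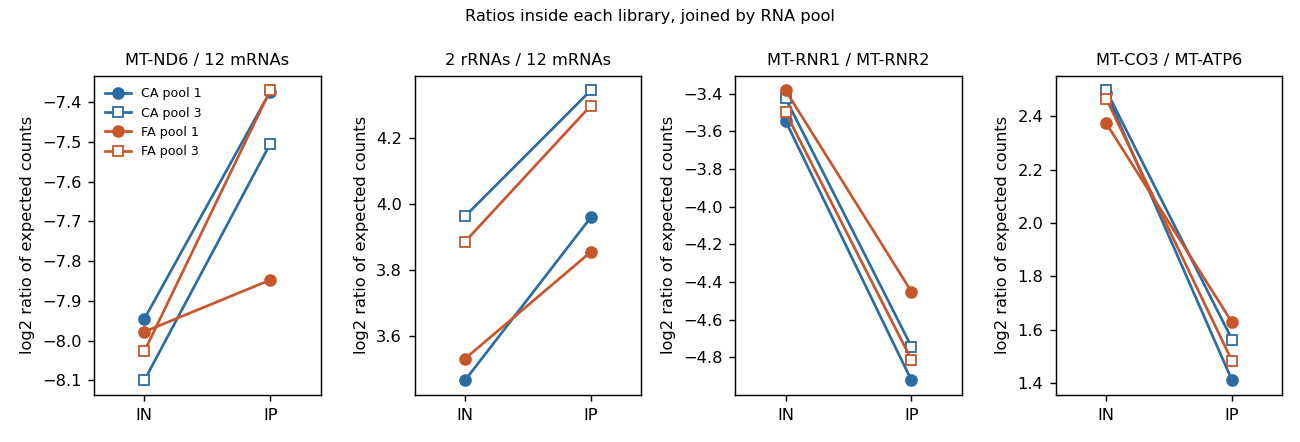
Log2 ratios of expected counts inside each library, with input (IN) joined to the immunoprecipitated fraction (IP) of the same RNA pool, blue for clean air and orange for formaldehyde, circles for replicate 1 and squares for replicate 3. The panels show MT-ND6 over the 12 heavy-strand mRNAs, the rRNAs over those mRNAs, MT-RNR1 over MT-RNR2 and MT-CO3 over MT-ATP6, the last 2 with mean differences of -1.27 and -0.94, and the axes do not start at 0.

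The strand comparison set MT-ND6, the light-strand mRNA of a complex I subunit, against the 12 heavy-strand mRNAs of the same library. MT-ND6 counts were 0.406% and 0.364% of the summed heavy-strand mRNA counts in CA_IN and 0.397% and 0.383% in FA_IN. They were 0.603% and 0.551% in CA_IP and 0.434% and 0.605% in FA_IP. The input and immunoprecipitated libraries did not overlap, and FA_IP replicate 1 lay closest to the input. The mean log2 ratio was 0.49 higher after immunoprecipitation, with an exact two-sided permutation p = 0.0286, the smallest possible for 4 against 4, and with an exact p = 0.125 for exchanges within RNA pools. The sum is mostly MT-CO1 and MT-CO3. Against the median of the 12 mRNAs in place of their sum, the difference was 0.048 (exact permutation p = 0.657). Against MT-ND5, its neighbour on the other strand, it was 0.01, with 2 of 4 pools above 0. MT-ND6 itself had 47.2 and 34.2 TMM-scaled CPM in CA_IN against 32.5 and 25.4 in CA_IP, and 48.6 and 37.6 in FA_IN against 26.7 and 32.2 in FA_IP. Its change over both treatments was -0.52 ± 0.14 (SE; edgeR adjusted p = 0.0822, or 1.43e-05 with the pool as a block). The counting used no strand information, so that MT-ND6 reads and antisense heavy-strand reads at the same place could not be told apart.

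The rRNAs together were 1110% and 1560% of the heavy-strand mRNA counts in CA_IN against 1560% and 2030% in CA_IP, and 1160% and 1480% in FA_IN against 1450% and 1970% in FA_IP. The ranges overlapped between fractions, with replicate 3 higher than replicate 1 in every group, and all 4 RNA pools moved upwards. The mean log2 ratio was 0.40 higher after immunoprecipitation (exact permutation p = 0.143, and 0.125 within pools), and against the median of the mRNAs it was -0.039. The sum of the rRNAs is mostly MT-RNR2.

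None of the 15 RNAs passed the test of formaldehyde against clean air in the input. By edgeR 0 of 15 passed the adjusted limit for FA_IN against CA_IN, 0 had an unadjusted p below 0.05, and DESeq2 gave 0 on both counts. The smallest adjusted p was 0.945, and 0.00548% of all genes passed in either direction. The log2 differences ran from -0.10 (MT-ATP8) to 0.26 (MT-ND1, 95% interval -0.06 to 0.57). The widest interval, that of MT-ATP8, was -0.63 to 0.43, so that a change of about that size was not detectable with 2 libraries a group.

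The immunoprecipitated-to-input difference did not pass the test of a difference between formaldehyde and clean air for any of the 15 RNAs. The interaction gave 0 calls by edgeR, with 0 at an unadjusted p below 0.05, and 0 calls and 0 unadjusted by DESeq2. Of all genes 0.0% passed in either direction. With the RNA pool as a block there were again 0 calls, where 0.137% of all genes passed. In that fit 2 of the 15 had an unadjusted p below 0.05, a limit for which no share of all genes is given here. Positive values, which mean a smaller fall in formaldehyde, were found for 11 of 15. MT-RNR1 had the highest at 0.21 (95% interval -0.22 to 0.65), then MT-CO3 at 0.20 (-0.23 to 0.63). MT-ND6 had the lowest at -0.05 (-0.71 to 0.60). The values of the 15 genes in clean air and formaldehyde were similar in rank (Spearman's rho 0.929 across 15 genes, which share libraries and precursors and are not independent).

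The size of the fall had no plain order with guanine content over the whole set. Across the 15 genes, Spearman's rho between guanine share and the log2 change over both treatments was -0.218 (Pearson's r -0.064), as a description of genes that share their libraries. MT-ND6, with 35.6% guanine, changed by -0.52, while MT-ND1, with 11.7%, changed by -0.51. Without MT-ND6 the rho was -0.464 over 14 genes, and -0.594 over the 12 heavy-strand mRNAs, so that the more guanine-rich of these were, if anything, lower. For length the rho was 0.239 over the 15 genes. The values were larger for 2 other measures. For cytosine share the rho was 0.355 over the 15 genes and 0.845 over the 12 heavy-strand mRNAs. For the input level in TPM it was -0.632 over the 15 genes and -0.802 over the 13 mRNAs, and here the level and the change rest on the same input libraries.

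**Figure D5:**
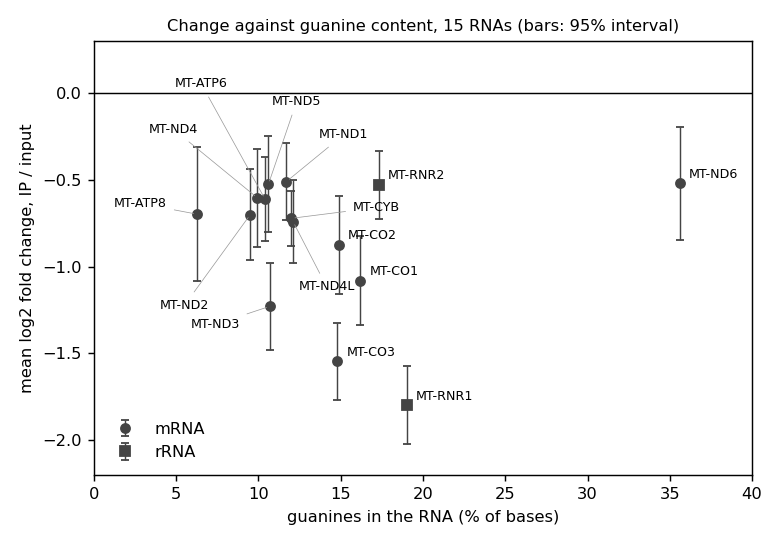
Mean log2 fold change over both treatments (bars, 95% interval) against the share of guanines in each of the 15 RNAs (%), circles for mRNAs and squares for rRNAs. MT-ND6 stands alone at 35.6% with a change of -0.52, and MT-RNR1 at 19.0% has the lowest value, -1.80.

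The nuclear genes that make, process and degrade mitochondrial RNA moved little as a group. Of 31 such factors, all tested, 1 rose and 1 fell over both treatments by edgeR's adjusted p, and none passed in either treatment alone, in the input comparison or in the interaction. Over all genes 2.15% rose and 3.04% fell. Their median log2 fold change was 0.00, beside 0.01 for all genes. The factor that fell was SLIRP, which binds mitochondrial mRNAs together with LRPPRC and stabilizes them, at -0.50 ± 0.12 (SE; adjusted p = 0.0402). The factor that rose was HSD17B10, a subunit of the mitochondrial RNase P that frees tRNA 5′ ends, at 0.34 ± 0.07 (adjusted p = 0.0291). With the pool as a block 8 rose and 2 fell (SLIRP and PNPT1), where 15.5% of all genes rose and 9.64% fell. The remaining named factors did not pass the test without the block. POLRMT, the mitochondrial RNA polymerase, had 0.38 ± 0.13 (adjusted p = 0.15, or 1.59e-05 with the block), and TFAM, which packages mitochondrial DNA and starts its transcription, had -0.05 ± 0.06. LRPPRC had -0.07 ± 0.07. The degradosome pair had -0.15 ± 0.08 for PNPT1, the exonuclease (adjusted p = 0.399, or 0.035 with the block), and 0.04 ± 0.08 for SUPV3L1, the helicase.

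Nuclear copies of mitochondrial genes, which share reads with them, held few counts beside the 13 mRNAs together. The 404 annotated copies of the mRNAs and rRNAs together had 0.88% to 1.11% as many counts as the 13 mRNAs. Of the 14 copies tested, 3 fell over both treatments by edgeR, all among the 5 with the highest mean count, against 3.04% of all genes. The log2 fold change was -0.64 ± 0.10 (SE; adjusted p = 0.00701) for MTATP6P1, which had a mean of 1494 counts, -1.04 ± 0.16 (adjusted p = 0.00747) for MTND2P28 and -1.64 ± 0.14 (adjusted p = 0.000183) for MTCO1P12. MTND4P15 and MTND1P9 had 22.2 and 18.2 counts a library and changes of -0.08 ± 0.25 and -0.09 ± 0.31. Beside its source gene a single copy could hold more. In CA_IN replicate 1, MTATP6P1 had 2839.9 counts against 19947.08 for MT-ATP6, and MTND2P28 had 597.9 against 12623.12 for MT-ND2. MTCO1P12 had 641.7 there against 217113.28 for MT-CO1. Because near-identical sequence lets reads pass between a copy and its source, the values of both are uncertain, and those of MT-ATP6 more than those of MT-CO1.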

How the data were processed

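RNA from BEAS-2B cells was sequenced as 8 libraries, 2 each of CA_IN, FA_IN, CA_IP and FA_IP, on NEBNext Small RNA libraries with 75-base reads. By the submitters' processing notes the tools were cutadapt, STAR 2.6.0a, RSEM 1.2.25 and, for the comparisons, DESeq2 in R 3.5.0. The authors aligned to GRCh38.p12 with Ensembl 94 annotation, and RSEM was run without a strand option. The authors deposited RSEM expected counts, TPM and effective lengths per transcript for each library, without normalization between libraries. The antibody clone is named differently in different descriptions and is not certain. The deposited tables of the authors' own comparisons (log2 fold changes and p-values) were not used.

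Expected counts were summed by gene and rounded. The 18242 genes that reached 10 counts in 2 or more libraries were analysed with edgeR 4.0.16 in R 4.3.3. The settings were TMM, quasi-likelihood, prior count 0.125 and a mean per group over all 8 libraries. Benjamini-Hochberg adjustment ran over all tested genes, with a limit of 0.05. Single values were compared by exact two-sided permutation tests in scipy 1.17.1. A comparison of 2 with 2 libraries cannot go below 0.333, so that within a treatment such values are given without a test. Positions and sequences came from GENCODE 44 and hg38, and 99.1% of gene IDs had a symbol. Libraries held 16883500 to 45144392 expected counts. The model was tested on simulated counts.

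Fractions of one RNA pool share a replicate number by the study's design. The replicate differences of the fractions were correlated across 12639 genes (r = 0.747 in clean air and 0.618 in formaldehyde), and the RNA pool as a block was fitted beside the main model. The named genes were the 37 members, 6 nuclear factors and any listed factor that passed, and the 5 nuclear copies with the highest mean count. The members, lists and tests were chosen with earlier results of these data known. Alternatives were DESeq2 1.42.0, other normalizations and filters, effective lengths as offsets, 4 libraries only, blocks, and each library left out.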

Additional observations from a re-analysis of the deposited data

How the results depend on the processing

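All 15 RNAs kept their direction in clean air, in formaldehyde and over both treatments under every alternative fit (795 values of a gene under an alternative, each left-out library included, of which 0 reversed, 94 were newly past the threshold and 36 no longer past it). What changed was the number called. In the main fit 1.77% of all genes fell in clean air and 1.47% in formaldehyde. With the RNA pool as a block the shares were 5.85% and 4.6%. For the other fits no share of all genes is given here, so a larger count of members may reflect a less strict fit. In clean air, where 7 fell, there were 14 by DESeq2 and 15 without the filter on low counts, with the replicate number as a block or with the RNA pool as a block, and 4 to 8 when a library was left out. In formaldehyde, where 5 fell, there were 12 by DESeq2, 15 without the filter or with either block, and 2 to 6 when a library was left out. The cause of the change without the filter was not tested. Over both treatments the count was 12 to 15 under these fits and 10 to 14 with a library left out. The losses were MT-ND1, MT-ND4 and MT-ND5 without CA_IN replicate 1, CA_IP replicate 3 or FA_IP replicate 1. MT-RNR2 was lost without CA_IN replicate 3 or FA_IN replicate 3. Without FA_IN replicate 1 the losses were MT-ND4, MT-ND5 and MT-RNR2, and without FA_IP replicate 3 MT-ATP6, MT-ND1, MT-ND4 and MT-ND5, and MT-ND5 was also lost with library size in place of TMM. In clean air MT-CO2 and MT-ND4L lost their calls without CA_IN replicate 1 or CA_IP replicate 1, both and MT-CO1 without CA_IP replicate 3, and MT-CO2 without FA_IP replicate 1 or with only the 4 libraries of the comparison. Between treatments the replicate-number block rests on a shared number and on chambers that the study ran in parallel. Its pairs correlated at 0.577 (input) and 0.565 (immunoprecipitated).

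The share of the library was 3.95 percentage points lower after immunoprecipitation, a difference of -3.95 that ran from -4.27 to -3.70 with a library left out (exact permutation p = 0.0571, the smallest for 4 against 3) and stayed at -3.95 with the RNA pool as a block (exact p = 0.125, the smallest possible). On the TPM scale the difference was 0.606 (exact permutation p = 0.0571), where the median gene shifted by 0.91 log2 units. The MT-ND6 log2 ratio of 0.49 was 0.048 against the median mRNA, 0.49 with the pool as a block (exact p = 0.125), and 0.44 to 0.60 with a library left out. The rRNA ratio of 0.40 was -0.039 against the median mRNA. The differential tests rest on 2 libraries a group, and MT-ATP8, MT-ND6 and MT-ND4L had the fewest counts.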

Other observations

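The mitochondrial mRNAs and the 16S rRNA also differed between the replicates in the same direction in every group. Input and immunoprecipitated libraries of one replicate are fractions of the same RNA pool, so that the 4 groups give at most 2 separate contrasts of replicates. The clean air and formaldehyde chambers were run in parallel, and replicate differences of the inputs correlated at 0.577 between treatments. These 2 contrasts may therefore not be independent either. The 13 mRNAs held a larger share of the library in replicate 1 than in replicate 3 in 4 of 4 groups (1.13% against 0.897% in CA_IN, 1.13% against 0.931% in FA_IN, 0.583% against 0.485% in CA_IP and 0.66% against 0.551% in FA_IP). MT-RNR2 was the reverse in 4 of 4 groups, with 11.4% against 12.8%, 11.9% against 12.6%, 8.73% against 9.45% and 9.1% against 10.4%. MT-RNR1 had no common direction, being lower in replicate 1 in clean air and higher in formaldehyde in both fractions. Not every single mRNA followed the sum of the 13. In FA_IP, MT-ATP8 (20.4 against 29.5 TMM-scaled CPM) and MT-ND6 (26.7 against 32.2) were lower in replicate 1, and MT-CYB was nearly equal (427 against 429).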
